A study of Caenorhabditis elegans with 12 samples.

Results

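Nuclear hormone receptors are transcription factors that combine a zinc-finger domain, which binds DNA, with a domain that can bind a small ligand such as a sterol or a fatty acid. The nematode Caenorhabditis elegans carries a much larger family than insects or vertebrates, and most of its members are thought to descend from an ancestor like HNF4, a vertebrate receptor of liver and gut. A small conserved set has clear counterparts in other animals and acts in moulting and development, while several HNF4-like members are known for control of fat metabolism and of responses to toxins and pathogens. Most worm genes of the family are named nhr, for nuclear hormone receptor.

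The genes described here are the protein-coding genes of a RefSeq table (assembly WBcel235) whose symbol starts with nhr-. They number 269 of 19971 protein-coding genes on the 6 nuclear chromosomes. Chromosome V holds 167 of them and the other chromosomes hold 102, with 23 on I, 15 on II, 8 on III, 33 on IV and 23 on X. The rule uses the symbol alone and no measured value, although the family was picked for description with earlier results of these data known. A further 14 nhr symbols of the table are not protein-coding and were left out. The table holds no protein sequences, so the receptor domains of the members were not checked.

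The series used ChIP-seq, the sequencing of DNA precipitated with a chromatin protein, to map the transcription factor ETS-5. This factor of the ETS family is known for its role in the gas-sensing BAG neurons. The 12 samples form 4 groups of 3, which are the precipitate and the input of strain FQ237, given in the series title as ets-5-gfp worms, and the precipitate and the input of the wild-type strain N2. All worms were fed E. coli OP50, all samples are whole-worm extracts, and the labels name the GFP antibody ab290 for all of them. The labels give neither the worms' age nor the design of the fusion gene. They also do not say if replicates are separate cultures, so their spread may be technical. Window lists of the 3 ETS-5 precipitates were used. The other 9 samples were not analysed here, so nothing below is a difference from wild type or from input. A whole-worm extract does not show in which cells a window arose.

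The lists of replicates 1, 2 and 3 held 3811, 2915 and 3697 windows, each 400 bp wide. They carry no read counts, so the depth behind each window is unknown. Merging overlapping windows gave 5455 regions, of which 1788 contained windows from each of the 3 replicates. These are named shared regions. A gene counted as near a region or window when the centre of that region or window fell no farther than 2000 bp outside, and no farther than 500 bp inside, 1 of the gene's ends. The table has no strand, so a 5' end and a 3' end cannot be told apart. The place of a window is given below by its line in each list. What the order means is not stated in the files.

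Most nhr genes, like most genes of any kind, lay near no shared ETS-5 region. Of the 269, 14 lay near a shared region (5.20%, exact 95% binomial interval 2.87% to 8.58%), against 7.44% of all protein-coding genes. The interval takes in the share of all genes. These 14 genes lay near 13 regions. In the single lists, 27 nhr genes lay near a window of replicate 1 (10.04%), 21 near one of replicate 2 (7.81%) and 24 near one of replicate 3 (8.92%). That is 8.92% ± 1.12 (SD, n = 3) for nhr genes, against 13.6% ± 1.75 for all genes, of which 13.8%, 11.7% and 15.2% were near a window of replicates 1, 2 and 3. The nhr share was thus below that of all genes in each of the 3 lists.

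Most members had no window at all. Of the 269 nhr genes, 234 were near no window in any list (87.0%), against 79.6% of all genes. Near a window of at least 1 list lay 35 nhr genes, or 13.01%, against 20.4% of all genes. Windows of all 3 replicates lay near 14 members, the same 14 that lay near a shared region. Windows of exactly 2 replicates lay near 9 members and windows of 1 replicate near 12. Over all genes the shares were 7.62% for 3 replicates, 5.09% for 2 and 7.67% for 1, against 5.20%, 3.35% and 4.46% of nhr genes.

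Chromosomes differ in how often their genes lie near a shared region. If each nhr gene had the share of all genes on its own chromosome, 6.32% of them would lie near a shared region, which is 17.0 genes against the 14 counted. Taking the share from the same chromosome and the same part of it, its central or outer part when cut into 3 equal parts, gave 6.15%, or 16.5 genes. The sequence that counts as near nhr genes came to 1.15 Mb and held 13 shared regions, or 11.3 per Mb. For all genes it was 60.1 Mb with 991 shared regions, or 16.5 per Mb.

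**Figure D1:**
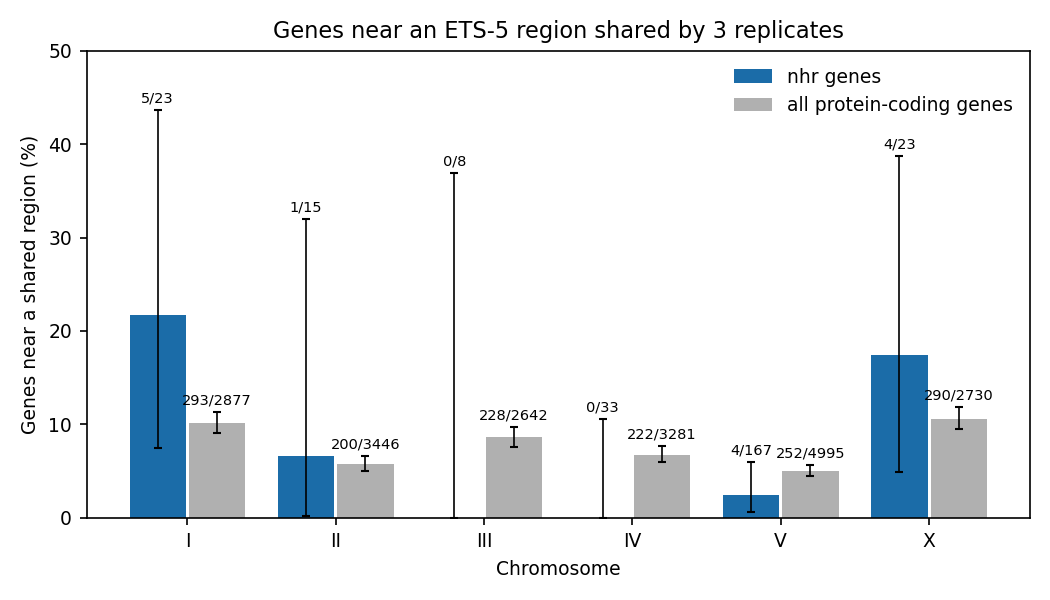
Share of genes near a shared region (y axis, percent) on each chromosome (x axis), for nhr genes (blue) and all protein-coding genes (grey). Bars are shares, lines are exact 95% binomial intervals and labels give genes near over genes counted, with 5 of 23 nhr genes on chromosome I, 4 of 23 on X, 4 of 167 on V and none on III or IV.

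The members on chromosome V and those elsewhere differed. On chromosome V, 4 of 167 nhr genes lay near a shared region (2.40%, exact 95% binomial interval 0.656% to 6.02%), against 10 of 102 elsewhere (9.80%, 4.80% to 17.3%). For all protein-coding genes the shares were 5.05% on chromosome V and 8.23% elsewhere. The nhr genes of chromosome V thus lay below the other genes of that chromosome, with an interval that still takes in their share. For the nhr genes of the other chromosomes the interval also takes in the share of all genes there. At the share of all genes on the same chromosome, 8.43 nhr genes of chromosome V and 8.58 of those elsewhere would have been near a shared region.

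The same order held in each list. On chromosome V, 12, 7 and 9 nhr genes lay near a window of replicates 1, 2 and 3, which is 7.19%, 4.19% and 5.39% (5.59% ± 1.51, SD, n = 3). Elsewhere it was 15, 14 and 15 genes, or 14.7%, 13.7% and 14.7% (14.4% ± 0.566). The 3 values on chromosome V do not overlap the 3 values elsewhere. Nor did they for all protein-coding genes, with 7.75% to 9.93% on chromosome V against 13.05% to 16.9% elsewhere. The difference, chromosome V minus elsewhere, was -8.79 ± 1.11 percentage points over the 3 lists (exact two-sided sign-flip permutation test, p = 0.25, the smallest that 3 replicates allow).

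All protein-coding genes showed a difference of the same sign. Near a window of replicates 1, 2 and 3 lay 9.19%, 7.75% and 9.93% of all genes on chromosome V, against 15.3%, 13.05% and 16.9% of those elsewhere. The difference was -6.15 ± 0.859 percentage points (SD, n = 3). The low share on chromosome V is thus shared with the rest of that chromosome's genes, and whether the nhr genes differ more was not tested. With only the first 50% of lines kept in every list, the contrast was smaller, with 1.80% of nhr genes on chromosome V near a shared region against 2.94% elsewhere, and 2.72% against 3.63% of all genes.

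**Figure D2:**
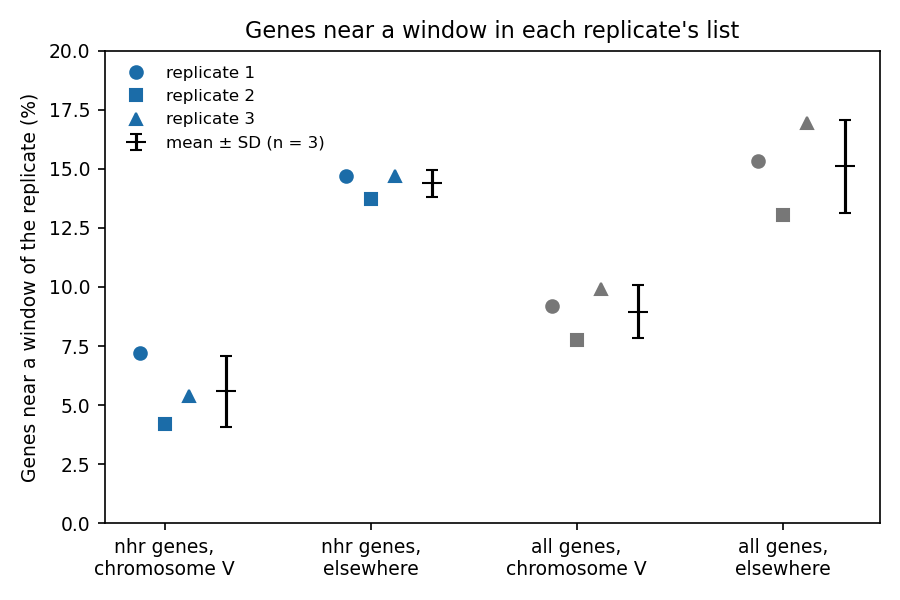
Share of genes near a window (y axis, percent) in each of the 3 ETS-5 precipitates, for nhr genes (blue) and all protein-coding genes (grey) on chromosome V and elsewhere. Symbols are replicates and bars are the mean ± SD (n = 3), with nhr genes of chromosome V at 4.19% to 7.19% and nhr genes elsewhere at 13.7% to 14.7%.

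Density per length of sequence gave the same order. Near nhr genes of chromosome V lay 3 shared regions in 0.677 Mb, or 4.43 per Mb, and near those elsewhere 10 in 0.475 Mb, or 21.03 per Mb. All genes had 11.7 per Mb on chromosome V and 18.0 elsewhere. The nhr genes of chromosome V are shorter than those elsewhere, with a median length of 2105 bp against 3031.5 bp. All genes of chromosome V are shorter too, with a median of 1744 bp against 2141.5 bp elsewhere. The nhr genes of chromosome V are thus longer than all genes of that chromosome by this median. Among members longer than the family's median of 2273 bp, 1 of 64 lay near a shared region on chromosome V (1.56%) and 9 of 70 elsewhere (12.9%). For all genes above that length the shares were 7.12% on chromosome V and 10.2% elsewhere. Among members at or under it, 3 of 103 (2.91%) and 1 of 32 (3.12%) were near a shared region on chromosome V and elsewhere. For all genes of that length the shares were 3.97% on chromosome V and 6.46% elsewhere. Near a window of at least 1 list lay 7 of 103 shorter members of chromosome V (6.80%) and 4 of 32 elsewhere (12.5%). For all genes of that length it was 11.1% and 18.5%. For the longer members it was 9 of 64 (14.1%) and 15 of 70 (21.4%), against 18.0% and 27.4% of all longer genes. The longer members still differed in length, with a median of 2891.5 bp on chromosome V and 4402 bp elsewhere. For all longer genes it was 3492 bp and 4127 bp. The part of length in the contrast between chromosome V and elsewhere was not tested.

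Many members of chromosome V are each other's neighbours. Of the 167, 107 lie in uninterrupted runs of at least 2 nhr genes, the longest of 9, against 30 of 102 elsewhere, where the longest run holds 4. For 76 members of chromosome V the nearest protein-coding gene is another nhr gene, and 3 of these (3.95%) lay near a shared region, against 1 of the 91 others (1.10%). Over all genes of chromosome V it was 1.91% of those next to an nhr gene (3 of 157, the same 3 nhr genes) against 5.15% of the rest. The nhr genes and the other genes of chromosome V thus differed in order, on few genes, with nhr-115 and nhr-225 near the same region. Elsewhere 1 of 17 such members (5.88%) and 9 of the 85 others (10.6%) lay near a shared region, against 7.87% and 8.24% of all genes there. Clustered family members can be close copies of each other, so reads there may be shared between them. How the authors treated such reads is not stated in the labels, and any effect on these shares was not tested.

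The place along the chromosome was compared as well. On chromosome V, in the outer parts 3 of 126 nhr genes lay near one (2.38%), and in the central part 1 of 41 (2.44%). All genes of chromosome V had 4.29% in the outer parts and 6.40% in the central part. Near a window of replicates 1, 2 and 3 lay 8.73%, 4.76% and 6.35% of the outer members of chromosome V, against 2.44% of the central ones in each list. Over all genes of chromosome V it was 7.99% ± 1.48 in the outer parts and 10.7% ± 0.536 in the central part (SD, n = 3). For nhr genes elsewhere it was 8 of 71 in the outer parts (11.3%) and 2 of 31 in the central part (6.45%), against 8.64% and 7.57% of all genes there.

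The other chromosomes were not alike. On chromosome I, 5 of 23 nhr genes lay near a shared region (21.7%, exact 95% binomial interval 7.46% to 43.7%), against 10.2% of all genes there. Those 5 were near a window in each of the 3 lists, and no other nhr gene of the chromosome was near any. The 21.7% of each list stood against 17.5%, 15.05% and 20.5% of all genes there in replicates 1, 2 and 3. Near a window of at least 1 list lay 26.0% of all genes of chromosome I, more than the 21.7% of nhr genes. On X, 4 of 23 lay near a shared region (17.4%, 4.95% to 38.8%), against 10.6% of all genes. On chromosome II it was 1 of 15 (6.67%), against 5.80%.

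The X chromosome held the nhr genes that most often had a window in some list. Near a window of at least 1 replicate lay 11 of its 23 members (47.8%), against 24.2% of all genes on X. In replicates 1, 2 and 3 it was 8, 8 and 7 members (33.3% ± 2.51, SD, n = 3), against 17.3% ± 1.78 of all genes on X. Chromosome IV stood at the other end. None of its 33 nhr genes lay near a shared region (exact 95% binomial upper limit 10.6%), against 6.77% of all genes there. None lay near a window of any list either, against 19.8% of all genes of chromosome IV. On chromosome III, 0 of 8 lay near a shared region (exact 95% binomial upper limit 36.9%), against 8.63% of all genes.

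Among the conserved receptors, nhr-48 had the best placed region of the whole family. It belongs with daf-12 and nhr-8 to a group related to the vertebrate vitamin D receptor. The region lay on chromosome X from 15707384 to 15707802, about 600 bp outside 1 end of the gene and outside every protein-coding gene. Its windows stood at line 26 of replicate 1, line 15 of replicate 2 and line 204 of replicate 3, which is within the first 5.52% of each list. The centre of the region lay 28.3 kb from that of the shared region near lin-15A, itself at line 3, 4 and 3 of the lists. Of the other conserved receptors, nhr-91, the counterpart of vertebrate germ cell nuclear factor, had windows of 2 replicates about 1600 bp outside the gene, at line 2630 of replicate 1 and line 1548 of replicate 3.

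No other conserved receptor had a window in any list, within its body or up to 2000 bp away. Among them were nhr-23, the counterpart of insect DHR3 and a regulator of moulting, nhr-25, the counterpart of insect Ftz-F1, and nhr-85, a relative of insect E75. They also include nhr-67, the counterpart of insect tailless, nhr-6, of the NR4A group, nhr-41, the counterpart of insect DHR78, and nhr-8, known for resistance to toxins and for cholesterol balance. The last were nhr-111 and nhr-239. So 1 of 11 conserved receptors lay near a shared region (9.09%, against 7.44% of all genes).

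Receptors of fat and energy metabolism had 3 of 11 members near a shared region (27.3%, against 7.44% of all genes), all on chromosome I. Over all genes of chromosome I the share was 10.2%, and 11 genes are too few to read a difference from. None of the 3 remained when only the first 50% of lines was kept. The gene nhr-49 encodes an HNF4-like regulator of fat burning and of the response to starvation. Its region, from 9869062 to 9869572, lay about 400 bp outside the gene and 300 bp outside the neighbouring K10C3.5. The windows stood at line 2916, 1926 and 1804 of replicates 1, 2 and 3, in the later part of the lists.

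The gene nhr-62, which encodes a receptor needed for the long life of worms on a restricted diet, had the region farthest from its end. It ran from 9846173 to 9846733 on chromosome I, about 1700 bp outside nhr-62 and 900 bp outside zig-1, at line 1057, 1332 and 2614 of replicates 1, 2 and 3. Replicates 1 and 2 held 2 more sites at nhr-62, about 100 bp outside the other end of the gene and 600 to 700 bp outside the same end. Replicate 3 had no window at these. The gene nhr-64, for a receptor much like HNF4, had the one region that lay inside its gene. That region, from 3101796 to 3102200 on chromosome I, was centred within 100 bp of the gene's end, at line 837, 510 and 1867.

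The other 8 genes of this list lay near no window by that measure. They are nhr-80 and nhr-13, which act with nhr-49 in fatty acid desaturation, nhr-66, nhr-69, and nhr-76, known for fat loss driven by serotonin. The others are nhr-10 and nhr-68, regulators of the propionate shunt, and nhr-114, known for diet-dependent fertility. One of them, nhr-66, had shared regions deep inside the gene, described below.

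The lists for moulting and development and for toxin, pathogen, metal and stress responses had no member near a shared region, with 0 of 7 in each, against 7.44% of all genes. A zero among 7 genes allows a share of up to 42.9% (3 counts of the total), so it is not set apart from that background. From the list for moulting, nhr-40 had shared regions deep inside the gene, described below. In the list for toxins, nhr-33 matched no protein-coding symbol. There nhr-14, an HNF4-like regulator of iron uptake, had windows of replicates 1 and 2 at line 3072 and 2198, within about 200 bp outside the gene. The gene nhr-86, whose receptor senses a pathogen metabolite, had windows of replicate 1 at line 3582 and of replicate 3 at line 1845, which did not overlap. The genes nhr-45, nhr-57, nhr-112 and nhr-176 had none.

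Members of no role list made up the other 10 genes near a shared region. The best placed was nhr-3 on chromosome X, with a region from 14561309 to 14561731 about 100 bp outside the gene, at line 86, 78 and 106. It stood in the first 2.87% of every list, the steadiest place of the 14. A further shared region lay inside nhr-3, about 1200 bp from its nearer end, from 14560047 to 14560473, at line 331, 180 and 375. Also on X, nhr-71 had a region from 13745603 to 13746058 about 1500 bp outside the gene, at line 1087, 1039 and 2346. A region about 200 bp outside nhr-1, from 17519324 to 17519756, came late in all lists, at line 2536, 1699 and 2822.

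The 4 members of chromosome V shared 3 regions. The neighbours nhr-225 and nhr-115 had the same one between them, from 2291231 to 2291636, about 1000 bp outside nhr-225 and 1100 bp outside nhr-115. It stood at line 379, 803 and 116 of replicates 1, 2 and 3, and its centres fell within 6 bp of each other. The region of nhr-58, from 531980 to 532403, lay about 100 bp outside the gene at line 933, 648 and 736. That of nhr-141, from 7443455 to 7443902, lay about 1000 bp outside the gene. It came late in replicates 1 and 2, at line 3424 and 2614, and earlier in replicate 3, at line 823.

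The remaining 3 lay on chromosomes II and I. The region of nhr-88, from 2976687 to 2977167 on chromosome II, lay about 1500 bp outside the gene at line 483, 603 and 564. The region of nhr-244, from 11453357 to 11453759 on chromosome I, lay about 1200 bp outside the gene and 1600 bp outside ZK1025.2. It was at line 67 of replicate 3 but at line 896 of replicate 1 and line 1619 of replicate 2. The region of nhr-245, from 11480328 to 11481144 on chromosome I, had centres spread over 417 bp. Its window in replicate 3 overlapped that of replicate 1 by less than 100 bp and that of replicate 2 not at all, and the region no longer counted as shared when windows had to overlap by 100 bp.

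**Figure D3:**
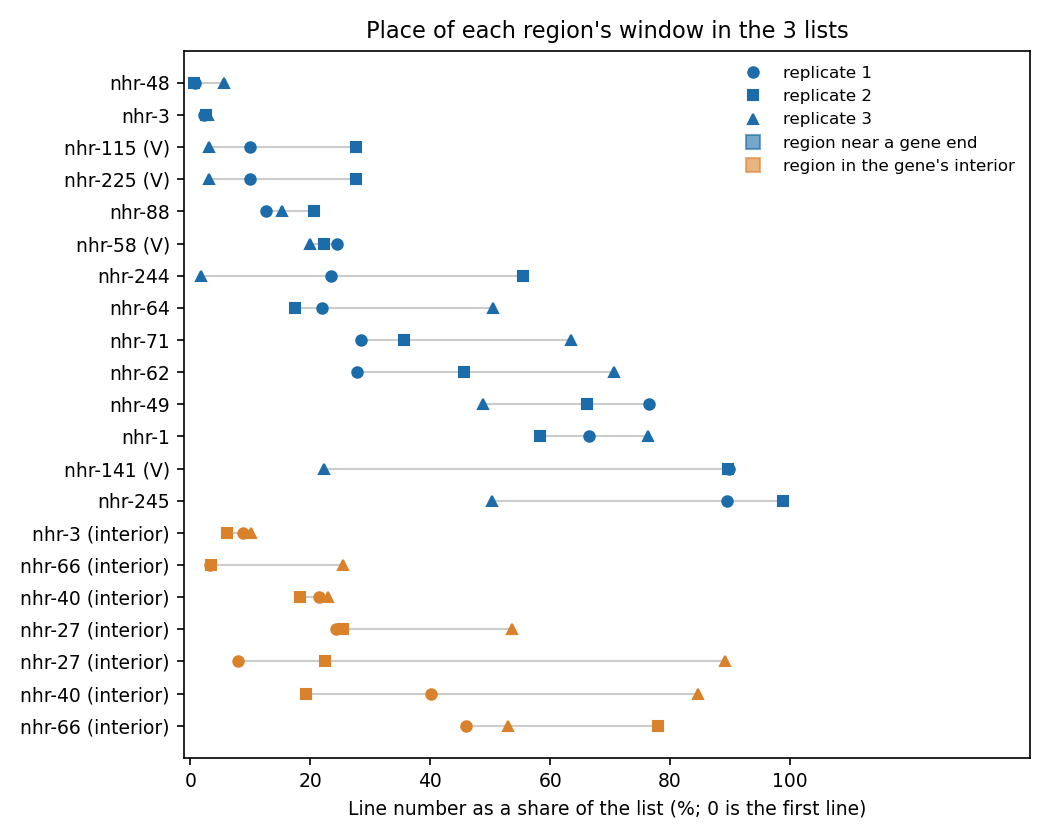
Line number of each region's window as a share of the list (x axis, percent, 0 being the first line) in the 3 replicates, for the 14 nhr genes near a shared region (blue) and for 7 shared regions in the interior of nhr genes (orange). The regions of nhr-48 and nhr-3 stood in the first 5.52% and 2.87% of every list, while those of nhr-141 and nhr-244 stood far apart between lists.

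The 13 regions at nhr genes were placed in the lists much like other shared regions. The mean place over the 3 lists had a median of 30.0% of the list for regions near an nhr gene, against 35.99% for all 991 shared regions near a gene. The range was 2.24% to 79.5% for the regions near nhr genes. In the first 10% stood 2 of the 13 (15.4%), against 9.38% of shared regions near any gene. Inside a protein-coding gene lay 1 of 13 (7.69%), against 19.5%. Of the 13, 4 lay near 2 or more genes (30.8%), against 44.6%.

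Most regions lay outside the receptor genes and several at some distance. For 13 of the 14 genes the centre was outside the gene, by up to 500 bp for 4, from 500 to 1000 bp for 4 and by more than 1000 bp for 5. By construction the measure reaches farther outside a gene, 2000 bp, than inside it, 500 bp. Of shared regions near any gene, only 19.5% lay inside a gene, and the distance classes were not counted over all genes. The region was near no other protein-coding gene for 9 of the 14 nhr genes. Of shared regions near any gene, 44.6% lay near 2 or more genes. The median spread of the window centres between replicates was 28.5 bp, with 3 bp the lowest and 417 bp the highest.

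**Figure D4:**
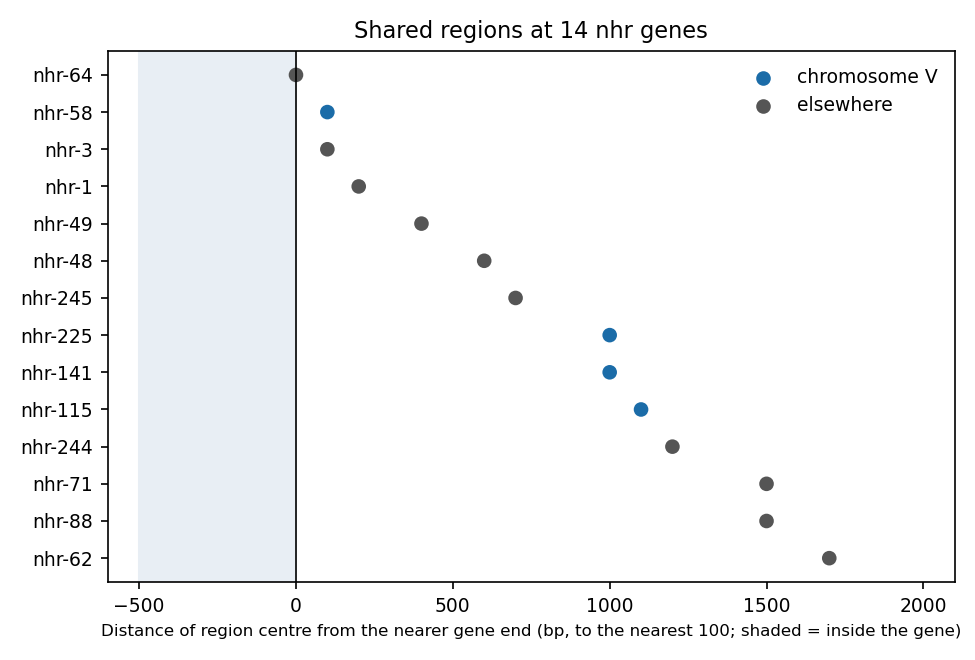
Distance of the region's centre from the nearer end of the gene (x axis, in bp to the nearest 100, positive outside the gene) for each of the 14 nhr genes (y axis), on chromosome V (blue) and elsewhere (grey). The region of nhr-64 sits at the gene's end and that of nhr-62 about 1700 bp outside it.

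Long receptor genes held further regions that the measure of gene ends does not count. Shared regions farther than 500 bp from both ends lay inside 4 nhr genes (1.49%, against 2.13% of all genes), with 7 such regions in all. The 4 were nhr-3, nhr-66, nhr-40 and nhr-27, of which the last 3 were not near a shared region by the main measure. None of the 4 was on chromosome V. Counting these, 17 nhr genes (6.32%) had a shared region, against 9.22% of all genes. On chromosome V it stayed at 4 (2.40%, against 6.19% of all genes there), and elsewhere it came to 13 (12.7%, against 10.2%).

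The first region inside nhr-66 was among the best placed of the family. The gene encodes an HNF4-like partner of NHR-49 in lipid metabolism. That region ran from 8232359 to 8232794 on chromosome IV, about 4000 bp from the nearer end of the gene, which spans 10272 bp. Its windows stood at line 124, 100 and 942 of replicates 1, 2 and 3. Another lay from 8235103 to 8235553, at line 1749, 2271 and 1958. Chromosome IV thus had a receptor gene with shared regions, although none lay near a gene end.

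The gene nhr-40, known for a role in muscle development of the embryo, held 2 shared regions within its 12730 bp on chromosome X. That from 2598747 to 2599431 stood at line 815, 532 and 851, and that from 2595245 to 2595678 at line 1527, 564 and 3132. The second of these also lay near an end of T03G6.7. The longest member, nhr-27 on X with 102695 bp, held 2 as well. These were at 12721456 to 12721925, at line 301, 654 and 3295, and at 12760256 to 12760682, at line 924, 741 and 1983, near cept-1. Other genes, cept-1 among them, lie within the span of nhr-27, so position alone does not assign these regions to it. Regions of replicates 1 and 2 also lay inside nhr-46 on chromosome IV, at line 845 and 847, and at line 3547 and 2082. Regions of exactly 2 replicates lay inside other members too, nhr-47 and nhr-128 on chromosome V among them.

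Windows of exactly 2 replicates lay near 9 members. Besides nhr-91, nhr-14 and nhr-86 these were nhr-281, nhr-32, nhr-50, nhr-61, nhr-247 and nhr-291. At nhr-281 on X, the windows of replicates 1 and 2 stood at line 567 and 915, the best placed of this group, about 900 bp outside the gene. At nhr-32 on X, those of replicates 2 and 3 stood at line 1307 and 1841, and at nhr-50 on V, those of replicates 1 and 2 stood at line 1876 and 861. The neighbours nhr-247 and nhr-291 on V had the same windows, at line 1327 of replicate 2 and 2606 of replicate 3. Those 2 windows did not overlap each other. The windows near nhr-61, at line 1615 of replicate 1 and 2951 of replicate 3, also did not overlap, and they lay as well near rpl-37.1 and osta-3.

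Windows of 1 replicate alone lay near 12 members (4.46%, against 7.67% of all genes). They were 8 of the 167 members on chromosome V and 4 of the 102 elsewhere, and this split was not counted over all genes. The best placed in replicate 1 were those near nhr-59 at line 1439, near nhr-63 at line 1876 and near nhr-173 at line 2173. The window near nhr-63 is that of nhr-50, its neighbour. An overlapping window of replicate 2 lay at the same site, with its centre just beyond 2000 bp from nhr-63. A member near a window of 1 replicate alone can thus lie at a site that another list also holds. Replicate 2 had 1 such member, nhr-167, at line 2796. Replicate 3 had nhr-255 at line 848, nhr-47 at line 1417 and nhr-201 at line 2197 as the best placed.

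Related genes of the receptor pathway were counted beside the family. The 6 nuclear receptor genes that bear other names, daf-12, unc-55, fax-1, odr-7, sex-1 and dpr-1, had no window near them in any list, against 20.4% of all genes near a window of at least 1 list. With so few genes their zero sets no useful limit. Of 4 cofactor genes, 2 lay near a shared region, against 7.44% of all genes, and 4 genes are too few to read a difference from. The gene cbp-1 encodes the CBP/p300 histone acetyltransferase and had a region about 900 bp outside it, at line 2007, 2117 and 572 of replicates 1, 2 and 3. The gene din-1, for a corepressor that partners with DAF-12, had one about 700 bp outside it, at line 1483, 1868 and 1572. The cofactor genes mdt-15, a Mediator subunit, and gei-8, related to vertebrate NCoR, had none.

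Genes upstream and downstream of the receptors were counted too. The 5 genes of dafachronic acid metabolism, which makes and limits the ligand of DAF-12, were daf-9, daf-36, hsd-1, dhs-16 and strm-1, and none lay near a window in any list, again against 20.4% of all genes. Of 8 known receptor targets, none lay near a shared region, against 7.44% of all genes, and a zero among 8 allows up to 37.5% (3 counts of the total). One of them, acs-2, a fatty acid activation gene controlled by NHR-49, had a window in replicate 1 at line 3222. The desaturase genes fat-5, fat-6 and fat-7, the propionate genes acdh-1 and hphd-1, and the metal genes smf-3 and ftn-1 had none. Depth and threshold are unknown, so a gene without a window is one for which the deposited lists show none, and no more.

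The settings changed the number of members counted more than the order of chromosome V and elsewhere. With 500 bp outside and 500 bp inside, 0.599% of nhr genes on chromosome V and 3.92% of those elsewhere lay near a shared region, against 1.84% and 3.33% of all genes. With regions found in at least 2 replicates it was 3.59% on chromosome V and 13.7% elsewhere, against 8.11% and 13.9%. In all of the settings plotted by share, nhr genes of chromosome V lay below those elsewhere and below all genes of chromosome V. The nhr genes elsewhere did not keep their order against all genes elsewhere. They lay above as reported (9.80% against 8.23%), but below in the first 50% of lines (2.94% against 3.63%) and with at least 2 replicates.

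**Figure D5:**
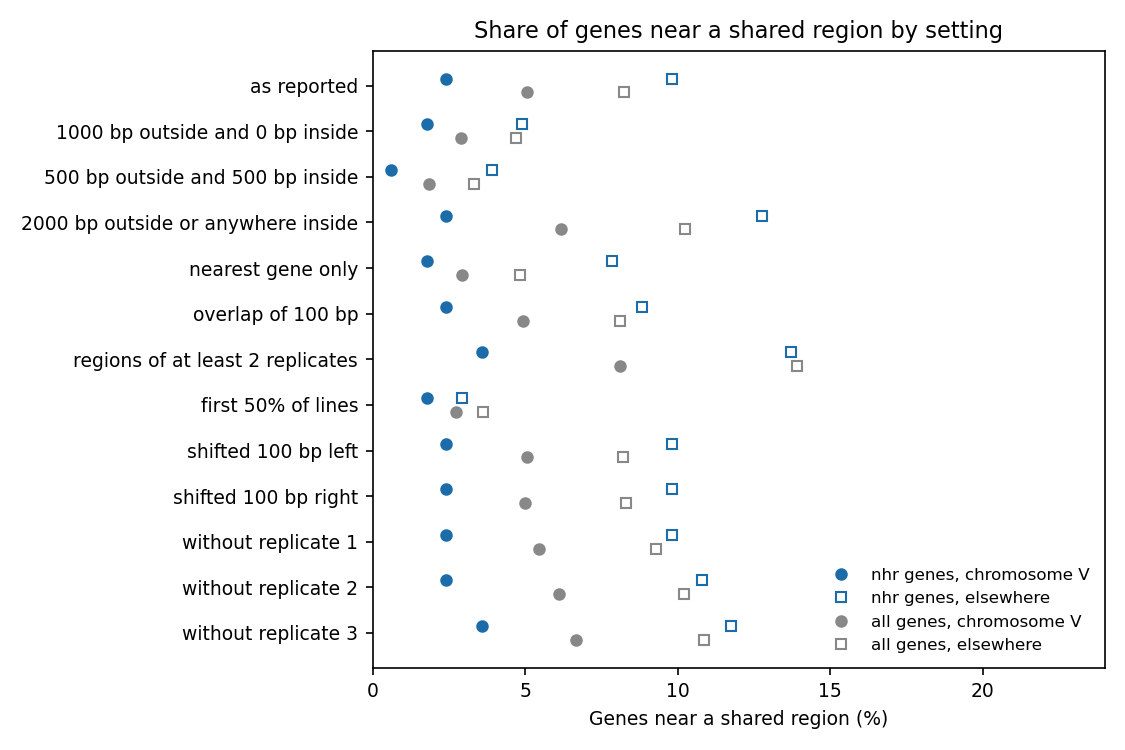
Share of genes near a shared region (x axis, percent) under each setting (y axis), for nhr genes (blue) and all protein-coding genes (grey) on chromosome V (filled circles) and elsewhere (open squares). The nhr genes of chromosome V range from 0.599% to 3.59% and those elsewhere from 2.94% to 13.7%, with the smallest gap in the first 50% of lines.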

How the data were processed

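The samples are chromatin immunoprecipitations from whole worms, grouped by their titles. For each ETS-5 precipitate the authors deposited 1 list of windows with chromosome, start and end, and no score, height or count. Per the submitters' processing notes, the tools were Bowtie2 and MACS2, with no version stated. The sources used here name no genome build, peak threshold or control sample, and do not explain the order of the lines. Starts are counted from 1, on the assumption that the lists count from 0.

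Gene names and ends came from a RefSeq gene table of assembly WBcel235, whose coordinates are not printed. To check that it fits the lists, shared regions were shifted. They lay inside protein-coding genes in 35.4% of cases as deposited, in 36.6% and 36.1% after shifts of 100 bp to the left and right, and in 46.6% and 45.8% after 500 bp. Distances are therefore rounded to 100 bp. The table gives no strand, exon, protein or sequence, so planned counts of upstream ends, promoter motifs and zinc fingers were not run and no sequences are shown.

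Windows overlapping by at least 1 bp were merged. Gene shares have exact 95% binomial intervals, which cover counting error and treat genes as independent although neighbours can share a region. The difference between chromosome V and elsewhere was tested by an exact sign-flip test over the 3 replicates. The members, lists and tests were chosen with earlier results of these data known. Genes are named if they lie near a shared region or near windows of exactly 2 replicates, if they are among the 3 best placed of those near windows of 1 replicate, or if they belong to a role list. The genes nhr-27, nhr-46 and nhr-128 were named outside these rules, after their values were seen. So was lin-15A, which is neither an nhr gene nor in a list of related genes. The merging and nearness steps were tested on simulated lists. Python 3.11.15, numpy 2.4.6, pandas 2.3.3, scipy 1.17.1 and matplotlib 3.10.9 were used.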

Additional observations from a re-analysis of the deposited data

How the results depend on the processing

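Of 70 recomputed values of the 6 main results, 17 moved, meaning counts by more than 1.5 times and the share per replicate by more than 1 SD. The difference between chromosome V and elsewhere was held to its direction alone, which no setting changed. With 1000 bp outside and 0 bp inside, 8 nhr genes and 8 regions counted, 5 genes elsewhere, and 5.33% per replicate. With 500 bp on both sides it was 5 genes, 5 regions, 1 gene on chromosome V, 4 elsewhere and 3.72%. The first 50% of lines gave 6 genes, 5 regions, 3 genes elsewhere and 5.45%. Anywhere inside the gene gave 20 regions and 11.5%, the nearest gene alone gave 6.69%, and at least 2 replicates gave 21 regions. By construction these settings take in less or more sequence, fewer lines or more regions. Leaving out each replicate gave 14 to 18 genes, 4 to 6 on chromosome V, 10 to 12 elsewhere, 13 to 18 regions, 8.36% to 9.48% per replicate and a difference of -9.43 to -8.42 percentage points between chromosome V and elsewhere. That difference, -8.79 ± 1.11 as reported, was -13.02 with anywhere inside the gene, -7.21 with 1000 bp outside, -4.54 with 500 bp and -4.90 in the first 50% of lines, each more than 1 SD away. The 14 genes all remained after shifts of 100 bp either way, 11 with the nearest gene alone, which loses nhr-49, nhr-62 and nhr-115, and 13 with an overlap of 100 bp. Adding the 6 receptors of other names left 14.

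The difference between chromosome V and elsewhere was taken within each replicate, since both shares come from the same list. Without that replicate block it was -8.79 percentage points, with p = 0.1 in an exact two-sided permutation test, the smallest that 3 against 3 allows. No paired analysis was possible between the study's groups because the lists used come from 1 group. The alternative that counts upstream ends needs a strand and was not run.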
